A study of Medicago sativa with 15 samples.

Results

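Roots of alfalfa seedlings held for 4 h in alkaline stress were compared with roots grown under normal conditions. Alfalfa (Medicago sativa) is a perennial forage legume whose genome is tetraploid. The stress was NaHCO3 at 50 mmol/L. The comparison rests on 6 of the 15 RNA-seq libraries of the series, 3 from stressed roots at 4 h and 3 from control roots, chosen by sample title. The other 9 libraries come from roots stressed for 8, 12 and 24 h and enter here through the shared estimate of spread and through the comparison of 4 h with later times. All 15 libraries are from seedling roots. The labels give no cultivar, seedling age or growth medium, and in the control libraries the treatment field also reads alkaline stress, so the title set the group. No group received sodium without bicarbonate, and the control has a single set of libraries, so the ion, the pH and the hour of sampling cannot be told apart. The labels do not say whether replicates were grown or pooled separately, so each p-value reflects library-to-library spread that could be technical in part.

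Bicarbonate raises the pH around the root and buffers it there. Roots are known to answer high pH by pumping protons through plasma membrane H+-ATPases and releasing organic acids, and iron and phosphate become harder to take up because they are poorly soluble at high pH. Sodium that enters with the bicarbonate is kept low in the cytosol by export across the plasma membrane and by storage in the vacuole. None of these genes can be picked out here. Gene IDs stand without names in the deposited tables, and a search of RefSeq's alfalfa annotation (Bolivia_mono) found 0 of the 164632 IDs. Genes are therefore described by level, size of change and coding length, 4 of them by ID, and root identity could not be checked against marker genes.

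The 4 h libraries held 13107517, 7160487 and 14539337 counts in replicates 1, 2 and 3, and the control libraries 14262860, 13509666 and 11266060. Replicate 2 at 4 h was the shallowest of the 6. Over genes with at least 300 counts in its group, it lay between the other 2 libraries at 77.2% of genes, against 12.1% and 10.7% for 4 h replicates 1 and 3 and 23.1% to 38.8% for the controls. It also held counts for 69032 genes, more than replicates 1 and 3 at 64162 and 64189 although those were sequenced more deeply. Control libraries held counts for 73880 to 80581 genes. Replicates 1 and 3 at 4 h had a Pearson correlation of 0.557 across 28014 genes with a mean of at least 5 CPM (counts scaled to library size with TMM factors), while replicate 2 had 0.842 with replicate 1 and 0.830 with replicate 3. Control pairs reached 0.801 to 0.877, and pairs of a 4 h and a control library 0.414 to 0.526. One library of each later group lay between its partners in the same way, at 73.4% of genes for 8 h replicate 3, 76.6% for 12 h replicate 1 and 71.9% for 24 h replicate 1, against 10.2% to 14.6% for the other later libraries. Whether these 4 libraries share material with their partners was not tested. The values with n = 3, their SDs and SEs and the p-values with 15 libraries count them as independent. If they are not, a stressed group holds 2 independent libraries and those p-values are too small. The fit with 14 libraries keeps the in-between libraries of 8, 12 and 24 h in its shared estimate of spread. Its p-values would then be too small as well. The main counts are therefore also given with 14 libraries, without 4 h replicate 2, and with the 11 libraries left without all 4 of them.

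After 4 h of alkaline stress more genes were lower than higher in the fits with 15 and 14 libraries. By edgeR's quasi-likelihood test (Benjamini-Hochberg adjusted p under 0.05), 13005 of 68605 genes differed from control with 15 libraries (19.0%), of which 4414 rose (6.43%) and 8591 fell (12.5%). Without 4 h replicate 2, 5137 of 73651 genes passed (6.97%), 2004 higher (2.72%) and 3133 lower (4.25%). The 2 sets shared 5085 genes with 1 direction (39.1% of the 13005 and 99.0% of the 5137), and 0 genes with opposite directions. With the 11 libraries 32 of 71665 genes passed (0.0447%), 15 higher (0.0209%) and 17 lower (0.0237%), and all 32 were also called in both larger fits. When only the 3 control libraries and 4 h replicates 1 and 3 were fitted, edgeR called 0 of 61429 genes, with 12775 at an unadjusted p under 0.05, and no other tool was run on those 5 libraries. The number of calls thus depended on the libraries admitted. The fits share most of their libraries, so nothing is read from the agreement in direction of the 32 genes. The median log2 fold change over all tested genes was -0.21 with TMM scaling, -0.11 with upper-quartile scaling and -0.36 in limma-voom. Over all settings tried this median ran from -0.50 to -0.053. The part of this offset in the excess of lower genes was not tested. In bulk root RNA, fewer cells of a type and less RNA per cell cannot be told apart.

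The genes that fell moved further than those that rose. Folds were held at a bound of 3 counts over 3 libraries wherever a group had no count. On that basis the median log2 fold change was 2.81 for the 4414 higher genes (interquartile range 2.09 to 3.83) and -3.78 for the 8591 lower genes (-4.82 to -2.72). Fitted values without the bound had medians of 2.82 and -4.55. A change of at least 16-fold was reached by 954 of the higher genes (21.6%) and by 3789 of the lower genes (44.1%), against 8.07% of all 68605 genes in either direction. Genes called without 4 h replicate 2 and tested in both fits numbered 1997 higher and 3121 lower. Their folds were again taken from the 15-library fit with the same bound, so replicate 2 still enters them. On that basis their medians were 3.14 and -4.61, and 570 (28.5%) and 2004 (64.2%) changed at least 16-fold. Folds under 2 were rare among the 15-library calls, with 3 higher and 0 lower genes. Higher genes had a median level of 16.9 CPM at 4 h and 2.51 CPM in control roots. Lower genes stood at a median of 0.221 CPM at 4 h and 6.14 CPM in control roots, so a typical lower gene was close to undetected after 4 h. The calls were chosen on these same counts, so their sizes describe them and are no separate evidence.

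**Figure D1:**
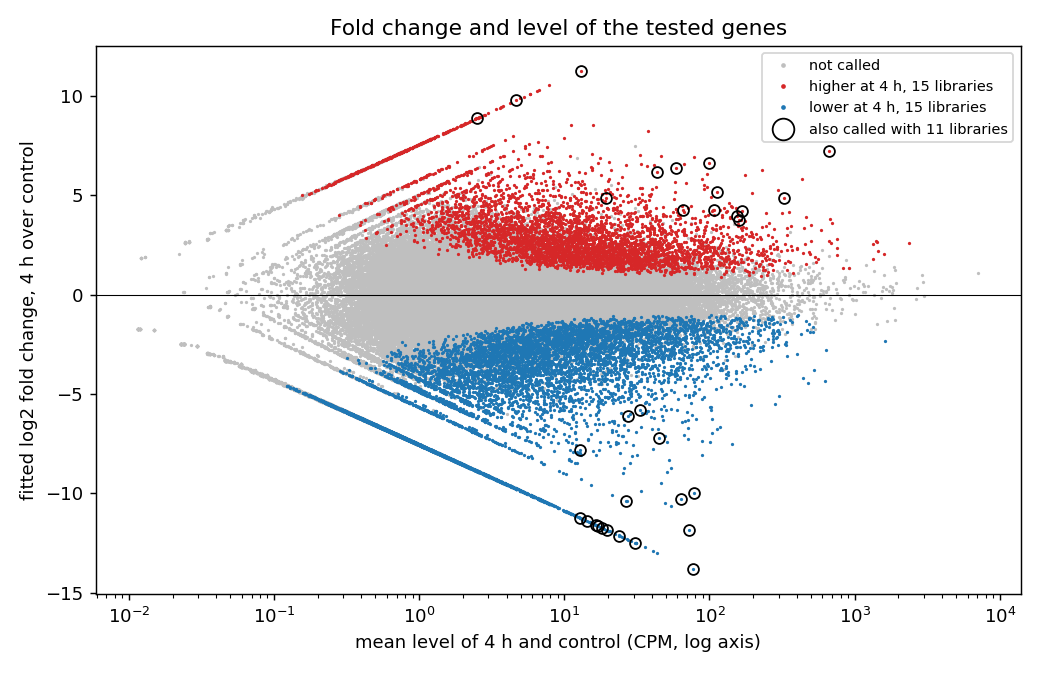
Each point is 1 of the 68605 tested genes, with its mean level of 4 h and control roots in CPM on a log axis and its fitted log2 fold change (4 h over control) on the vertical axis. Red and blue points are the 4414 higher and 8591 lower genes called with 15 libraries, and rings mark the 32 genes also called with 11 libraries. The straight lower edge is made of genes with no count at 4 h, whose fitted fold depends on the prior count.

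Summed over genes, the change took up a large part of the transcriptome. The 4414 higher genes together held 201669, 218609 and 271853 CPM in 4 h replicates 1, 2 and 3, against 44263, 45275 and 48277 CPM in the controls. Their sum was 5.02 times as large at 4 h (230711 ± 36623 CPM at 4 h and 45938 ± 2088 CPM in control, SD, n = 3 each). The 8591 lower genes held 45739, 38138 and 36637 CPM at 4 h, against 225570, 227063 and 224013 CPM in the controls. No 4 h library came near a control library in either sum, and replicate 2 lay between its partners in both. The genes were called on these same libraries, so a gap between the sums is built in and is no separate evidence. For the genes called without replicate 2 the sums were 127163 and 178951 CPM (higher) and 13199 and 10841 CPM (lower) in 4 h replicates 1 and 3, against 23444 to 26024 CPM and 102917 to 108375 CPM in the controls.

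Higher and lower genes differed in level and in length. Among the 1477 genes with a mean of at least 100 CPM over the 15 libraries, 283 rose (19.2%) and 176 fell (11.9%). Between 20 and 100 CPM, 1110 of 8278 genes rose (13.4%) and 1064 fell (12.9%). Under 1 CPM, only 311 of 13582 genes rose (2.29%) while 1780 fell (13.1%). The share that rose thus increased from class to class and the share that fell stayed between 11.9% and 13.1%. Without 4 h replicate 2 the higher share ran in the same order, from 0.449% under 1 CPM to 12.9% at 100 CPM or more, while the lower share was 2.23% under 1 CPM and 4.27% to 5.76% above it. Of the 11-library calls, 6 higher and 0 lower genes had at least 100 CPM, 7 and 7 had 20 to 100 CPM, 2 and 10 had 5 to 20 CPM, and 0 of either kind had less. A gene's own level at 4 h counts toward its class, so class and direction are not independent. Coding lengths, which follow from the deposited counts and FPKM, had a median of 1377 nt in the higher genes and 951 nt in the lower genes, against 1152 nt in all tested genes. For the genes called without replicate 2 the medians were 1359 nt in 1997 higher and 906 nt in 3121 lower genes, counting those tested in both fits. The part of level in this difference of length was not tested.

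**Figure D2:**
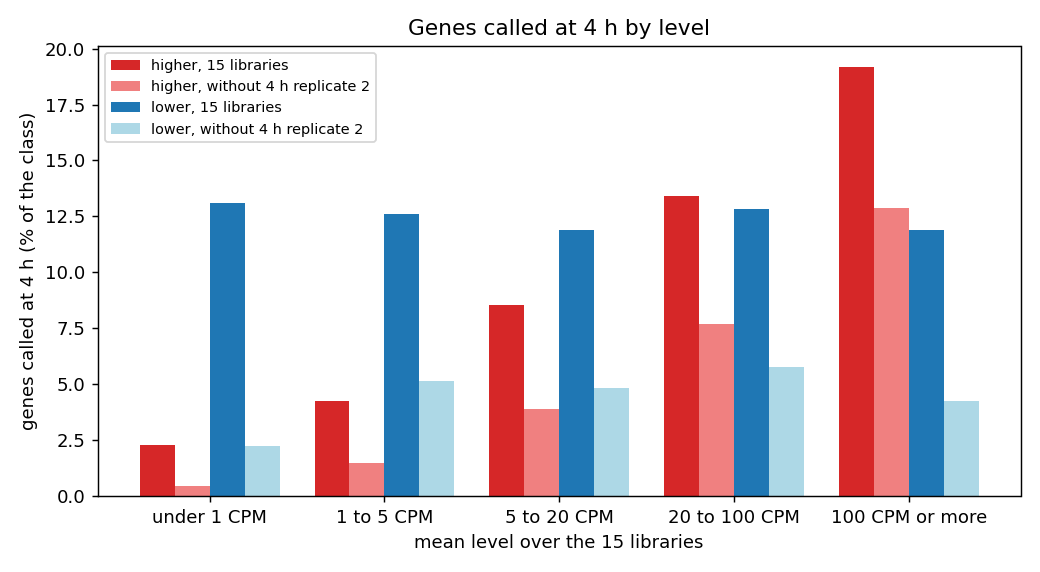
Bars give the share of genes called at 4 h against control (vertical axis, % of the class) in 5 classes of mean level over the 15 libraries, for higher (red) and lower (blue) genes. Dark bars are calls with 15 libraries and light bars calls without 4 h replicate 2. The higher share climbs with level, from 2.29% to 19.2% with 15 libraries, and the lower share does not.

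Library by library, 4 h and control were fully separated at part of the tested genes, and the 4 h libraries were not alike. In 9497 of the 68605 tested genes (13.8%) all 3 libraries of 4 h lay above all 3 controls, and in 15935 (23.2%) all lay below. With 4 h replicates 1 and 3 alone, 10134 genes (14.8%) lay above and 16481 (24.0%) below. Ordering alone separates some genes, and more of them with fewer libraries. These shares therefore cannot be compared directly with those of 3 libraries. Of the called genes 3870 of 4414 higher and 8154 of 8591 lower ones showed no overlap, a property that follows largely from the test. Between 4 h replicates 1 and 3 the median gene of at least 5 CPM differed by 1.07 on the log2(CPM + 1) scale, and 23.5% of genes differed by more than 4-fold. In control pairs the median difference was 0.448 to 0.634, and 2.84% to 6.48% of genes differed by more than 4-fold. The pairs that include 4 h replicate 2 had medians of 0.564 and 0.580 with 5.22% and 7.67% of genes over 4-fold, close to the control pairs. The wider spread at 4 h thus lay between replicates 1 and 3, and no test of the spread was made.

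Replicates 1 and 3 at 4 h were then set separately against the range of the controls, for the 28014 genes of at least 5 CPM. In 1703 genes both lay more than 2-fold above the highest control, and in 2503 genes both lay more than 2-fold below the lowest. Replicate 1 alone was outside the controls by that margin in 4026 genes and replicate 3 alone in 6245. They went opposite ways in a smaller number, with replicate 1 above and replicate 3 below in 261 genes and the reverse in 235. More genes thus departed from control in 1 of these libraries than in both.

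The 32 genes called with 11 libraries showed steep contrasts. Among the 15 that rose, mean levels at 4 h ran from 5.01 to 1323 CPM with a median of 197 CPM, against 0 to 22.1 CPM with a median of 6.23 CPM in control roots. Their summed level was 4190, 3722 and 3756 CPM in 4 h replicates 1, 2 and 3, against 101, 113 and 141 CPM in the controls. In the 15-library fit the smallest log2 fold change in this group was 3.77 and the median 5.14. No count in any control was found for 3 of the 15. In the 17 that fell, mean levels at 4 h ran from 0 to 1.14 CPM with a median of 0 CPM, against 25.3 to 155 CPM with a median of 52.9 CPM in control roots. Their summed level was 4, 2 and 3 CPM at 4 h, against 1308, 1216 and 997 CPM in the controls. Of the 17, 9 had no count in any 4 h library and 13 had at most 3 counts there. Their median log2 fold change was -8.69 in the 15-library fit, with folds held at the bound. The 15 thus had low or no signal in control roots and clear signal at 4 h, and the 17 had clear signal in control roots and nearly no counts at 4 h.

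A test on few libraries selects genes whose replicates agree, so the closeness of replicates in these 32 is a description. The highest of the 3 libraries at 4 h exceeded the lowest by a median of 1.84-fold in the 15 higher genes and by at most 5.13-fold (after adding 0.5 CPM). Coding lengths ran from 657 to 1842 nt in the higher genes and from 324 to 2457 nt in the lower genes. With 11 libraries the edgeR adjusted p ran from 0.00652 to 0.0481 for the higher and from 0.0231 to 0.0440 for the lower genes. On the same libraries limma-voom called 1773 genes and DESeq2 7298, so edgeR made the fewest calls of these 3 tools. Near-identical gene copies can split reads in a tetraploid, and possible copies among the 32 IDs were not looked for.

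**Figure D3:**
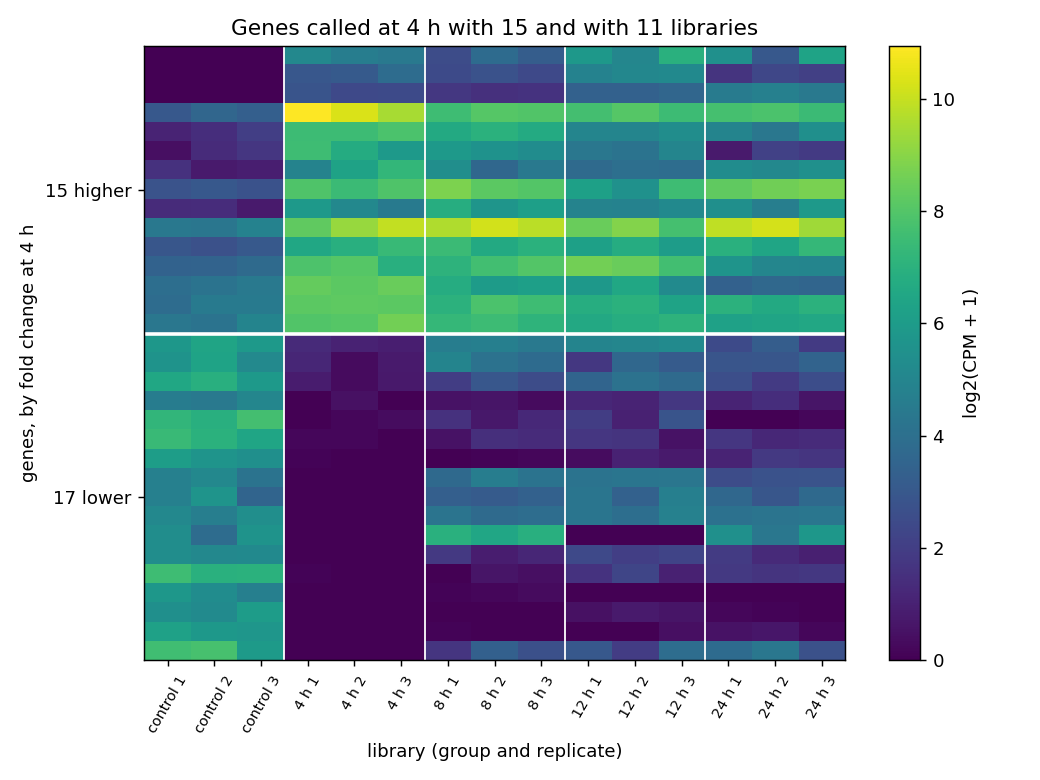
Rows are the 32 genes called at 4 h with 15 and with 11 libraries, sorted by fold change, and columns are the 15 libraries by group and replicate. Colour gives the level as log2(CPM + 1). Within each row, the 15 genes above the white line are brighter in every 4 h library than in every control, and the 17 below it are darker. Rows differ in level, from 5.01 to 1323 CPM at 4 h for the upper 15.

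The most abundant of these genes were followed in every library, the 2 higher ones ranked by their level at 4 h and the 2 lower ones by their level in control roots. MS.gene04663 (coding length 657 nt) had 1960, 1287 and 723 CPM in 4 h replicates 1, 2 and 3, against 7.12, 11.1 and 8.79 CPM in the controls. Every 4 h library was far above every control, although replicate 1 was more than 2-fold above replicate 3. Pooled counts were 44853 at 4 h and 357 in control, a level 146-fold higher (95% interval from an exact binomial test 132 to 162, counting error only). The fitted log2 fold change was 7.20 ± 0.49 (SE; edgeR adjusted p = 9.12e-06 with 15 libraries, 5.1e-05 without 4 h replicate 2 and 0.00652 with 11 libraries). Per length, MS.gene04663 stood at 2008 ± 949 FPKM at 4 h and 13.9 ± 3.3 FPKM in control roots (SD, n = 3 each).

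MS.gene037082 (1071 nt) had 304, 602 and 987 CPM at 4 h, against 19.6, 18.8 and 27.8 CPM in the controls. Here replicate 3 was the highest of the 4 h libraries and replicate 1 the lowest, the opposite order to MS.gene04663, and the groups again did not overlap. The pooled level of MS.gene037082 was 29.8-fold higher at 4 h (27.8 to 31.9), with a fitted log2 fold change of 4.84 ± 0.52 (edgeR adjusted p = 0.00017 with 15 libraries, 0.00117 without 4 h replicate 2 and 0.0354 with 11). On the FPKM scale MS.gene037082 stood at 579 ± 296 at 4 h and 20.9 ± 4.4 in control roots, so per length its mean was lower than that of MS.gene04663 at 4 h and higher in control roots.

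MS.gene040127 (498 nt) had 0, 0.133 and 0.291 CPM at 4 h, against 145, 117 and 203 CPM in the controls. Its 5 counts at 4 h compare with 6021 in control, a level 1036-fold lower (95% interval 444 to 3193). MS.gene040127 had a fitted log2 fold change of -9.96 ± 1.05 (edgeR adjusted p = 0.000164 with 15 libraries, 0.00254 without 4 h replicate 2 and 0.044 with 11). MS.gene92110 (660 nt) had no count in any 4 h library, against 189, 213 and 62.1 CPM in the controls. Control replicate 3 was the lowest of the controls for this gene and still far from the 4 h libraries. With 3 counts over the group as the floor, the level of MS.gene92110 was at least 1838-fold lower at 4 h, or 1434-fold when replicate 2 was left out, which changes the bound through the smaller total alone. Its edgeR adjusted p was 0.00017 with 15 libraries, 0.00169 without 4 h replicate 2 and 0.0307 with 11. In the fit of 5 libraries none of the 4 genes passed (edgeR adjusted p 0.0633 to 0.0656), and in the 20 other settings tried all 4 did. The 4 were chosen for passing with 15 and with 11 libraries, so passing in related settings is largely built in.

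**Figure D4:**
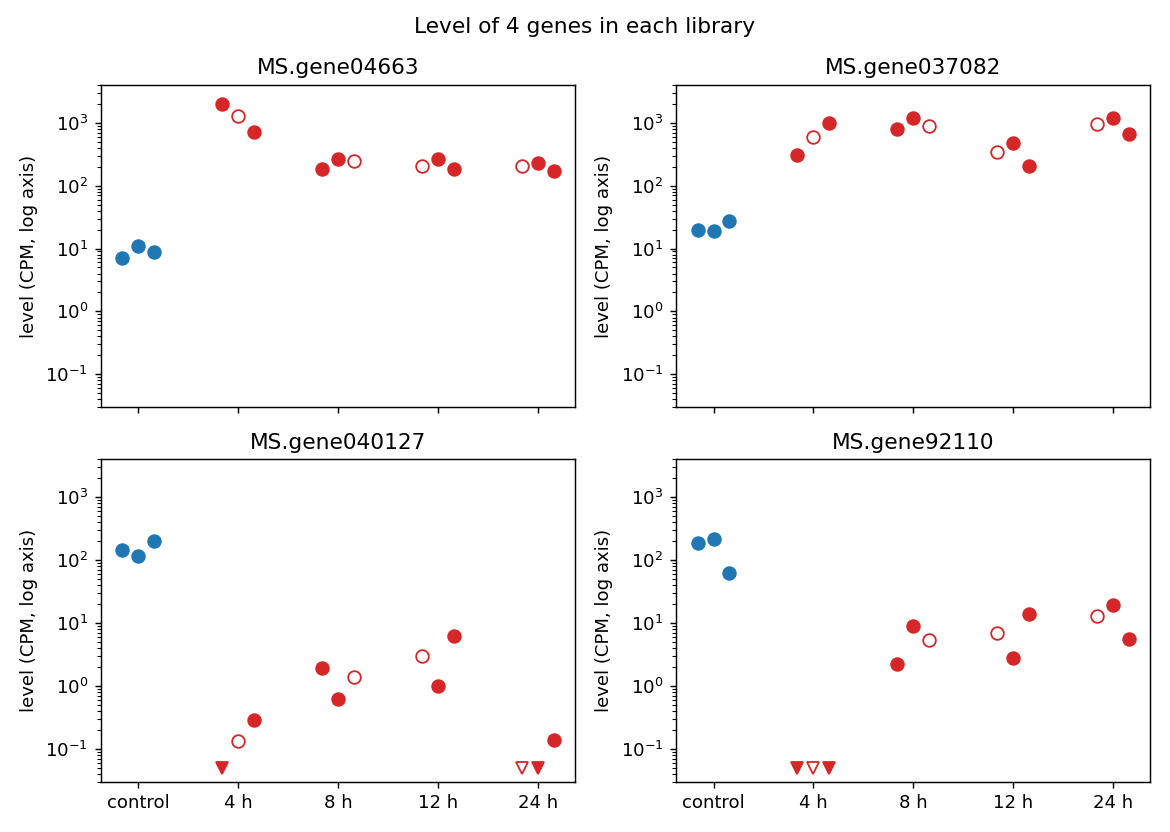
Each symbol is the level of a gene in 1 library, in CPM on a log axis, for control roots (blue) and roots after 4, 8, 12 and 24 h of stress (red). Open symbols are the library of each stressed group that lies between its partners, and triangles at the bottom are libraries with no count. MS.gene04663 has its highest levels at 4 h, MS.gene037082 is well above control at all 4 times, and the 2 lower genes are at or near 0 at 4 h.

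Genes with no count on one side were counted over all 164632 IDs, of which 108456 had a count in any library. No count in any 4 h library, with at least 10 in each control, was found for 1476 genes, and the reverse, at least 10 counts in each 4 h library and none in the controls, for 81. With 4 h replicates 1 and 3 alone the numbers were 1508 and 118. The 1476 genes had a median of 3.01 CPM in control roots, well over the 0.0879 CPM that a count of 0 over the 3 libraries at 4 h allows (3 counts). Genes without counts at 4 h thus outnumbered those without counts in control roots, although summed depth was also lower at 4 h (34807341 counts, against 39038586 in control roots). The part of depth was not tested. Of the 1476, 296 had no count at 8 h, 178 none at 12 h and 264 none at 24 h, and 58 had none in any of the 9 later libraries. These genes were chosen for having no count at 4 h, and any later count is enough here. Their counts at later times are thus largely built in. Of the 81 genes gained, 25 had a count in all 9 later libraries, while 15 had none at 8 h, 3 none at 12 h and 21 none at 24 h. The same count for the other times gave 688 genes lost at 8 h, 393 at 12 h and 750 at 24 h, and 104, 90 and 187 gained. All times share the controls, and the difference between these counts was not tested. Summed depth was 36417270 counts at 8 h, 32264604 at 12 h and 34433294 at 24 h, on either side of the 4 h total.

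**Figure D5:**
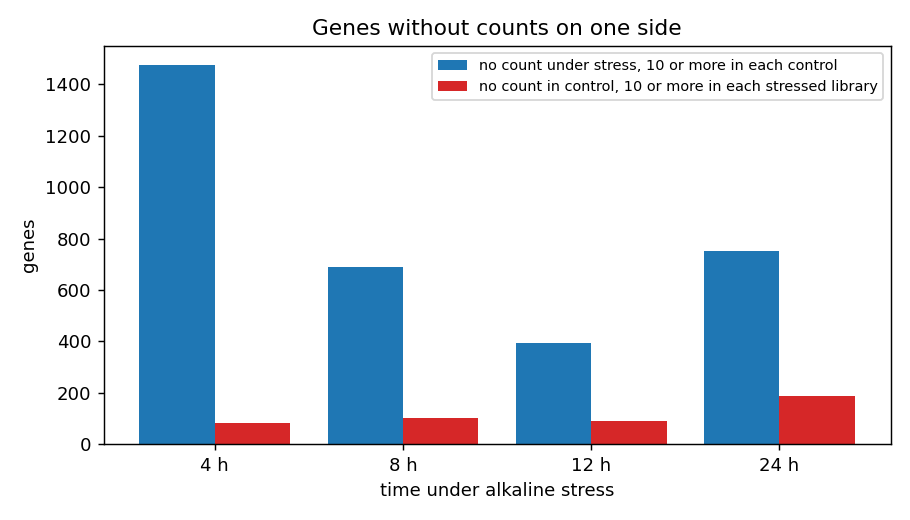
Bars count the genes with no count in the 3 stressed libraries and at least 10 in each control (blue), and those with no count in the controls and at least 10 in each stressed library (red), at each time under stress. At 4 h there were 1476 of the first kind and 81 of the second.

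Whether 4 h differs from the later hours was asked without the controls, by testing 4 h against the mean of 8, 12 and 24 h. With 15 libraries 12566 genes differed in edgeR (18.3%), 6224 higher (9.07%) and 6342 lower (9.24%) at 4 h. Without 4 h replicate 2 there were 4638 (6.30%), with 2788 higher (3.79%) and 1850 lower (2.51%). With 11 libraries 11 genes passed (0.0153%), 9 higher (0.0126%) and 2 lower (0.00279%) at 4 h, with 10436 at an unadjusted p under 0.05. The 9 had mean levels of 15.1 to 3846 CPM at 4 h, log2 differences of 4.14 to 8.90, and lay above all 9 later libraries in both 4 h replicates 1 and 3. Being above the later times did not always mean being above control. Against control, 6 of the 9 were called higher with 15 libraries and 0 with 11, where 6.43% and 0.0209% of all tested genes were. The 2 lower ones had no count at 4 h and belong to the 17 genes described above. Against single later times, 7205 genes differed from 8 h (10.5%), 8557 from 12 h (12.5%) and 10555 from 24 h (15.4%) with 15 libraries. Without 4 h replicate 2 these counts were 1594 (2.16%), 2198 (2.98%) and 3391 (4.60%). With 11 libraries edgeR and limma-voom called 0 genes in each (0.00%), with 7636, 8301 and 9267 at an unadjusted p under 0.05 in edgeR and 8300, 9180 and 10209 in limma-voom, and DESeq2 called 2405, 2957 and 3682. Calls between 4 h and a single later time therefore depended on the tool once the 4 intermediate libraries were left out.

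The genes that had changed at 4 h were followed to the later times. With 15 libraries in edgeR, 9.24% of all tested genes were lower at 4 h than in the mean of the later times and 9.07% higher. Of the 8591 lower genes, 3909 were lower and 106 were higher in that test. Among the 4414 higher genes, 1649 were higher at 4 h than later and 43 lower. These lists were chosen on the same 4 h libraries, so a move back toward control is partly built in. Without replicate 2, 2.51% of all tested genes were lower at 4 h than later and 3.79% higher. The counts were then 1167 and 11 of 3121 lower genes, and 549 and 4 of 1997 higher genes. With 11 libraries they were 2 and 0 of 17 lower genes, and 0 and 0 of 15 higher genes, of which 12 lower and 7 higher ones had an unadjusted p under 0.05 in edgeR in those directions. In that fit 0.00279% of all tested genes were lower and 0.0126% higher, and 10436 of 71665 had an unadjusted p under 0.05 in either direction. Set against control, median fitted log2 fold changes of the 4414 genes were 2.82 (4 h), 1.91 (8 h), 1.498 (12 h) and 1.62 (24 h). For the 8591 genes they were -4.55 (4 h), -1.60 (8 h), -1.21 (12 h) and -1.32 (24 h). All 4 values share the control libraries. Of the 15 higher genes called with 11 libraries, all 15 were called higher than control at 8 h and at 12 h and 13 at 24 h with 15 libraries, where 5.11%, 2.92% and 4.61% of all tested genes were called higher. These genes were chosen on the same controls, so nothing is read from that excess. Their median level was 6.23 CPM in control roots, 197 CPM at 4 h, 110 CPM at 8 h, 69.4 CPM at 12 h and 42.3 CPM at 24 h. Not every gene declined, since 4, 4 and 5 of the 15 had a higher mean at 8, 12 and 24 h than at 4 h. Median fitted log2 fold changes of the 15 against control were 5.14 (4 h), 5.10 (8 h), 4.03 (12 h) and 4.49 (24 h). Of the 17 lower genes, 12 were called lower at 8 h, 13 at 12 h and 14 at 24 h, against 7.29%, 4.36% and 6.86% of all tested genes, with the controls again shared. Their median level was 52.9 CPM in control roots, 0 CPM at 4 h, 1.53 CPM at 8 h, 3.36 CPM at 12 h and 2.36 CPM at 24 h. At 8 h, 6 of these 17 stood at more than 10% of their control level, and 1 stood above it.

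The 4 genes followed above went different ways after 4 h. MS.gene04663 averaged 1323 ± 620 CPM at 4 h, 233 ± 41 CPM at 8 h, 217 ± 43 CPM at 12 h and 203 ± 28 CPM at 24 h (SD, n = 3 each). It was higher at 4 h than in the later times together by 2.61 ± 0.28 on the log2 scale (edgeR adjusted p = 0.000153 with 15 libraries, 0.00145 without 4 h replicate 2, and 0.0836 with 11 libraries, where it did not pass). MS.gene037082 averaged 631 ± 343 CPM at 4 h, 954 ± 199 CPM at 8 h, 346 ± 137 CPM at 12 h and 936 ± 259 CPM at 24 h, and its log2 difference between 4 h and the later times was -0.10 ± 0.36 (edgeR adjusted p = 0.894). MS.gene92110 reached 5.56 ± 3.41 CPM at 8 h, 7.93 ± 5.63 CPM at 12 h and 12.7 ± 7.0 CPM at 24 h. Its 4 h level was lower than the later ones (edgeR adjusted p = 0.000694 with 15 libraries, 0.0046 without 4 h replicate 2 and 0.0836 with 11). MS.gene040127 had 1.32 ± 0.68 CPM at 8 h and 3.36 ± 2.60 CPM at 12 h, and only 2 counts in all 3 libraries of 24 h, a depth at which 4 h and 24 h could not be told apart (4 h minus 24 h log2 difference 1.19 ± 1.25, edgeR adjusted p = 0.548, from 5 counts at 4 h and 2 at 24 h). The 2 higher genes thus had different time courses by value, a contrast between genes that was not itself tested.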

How the data were processed

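RNA-seq of 15 alfalfa root libraries was used, 3 per group. Per the labels' protocols, the RNeasy and SMARTer mRNA-Seq kits were used for extraction and library preparation. The authors deposited raw counts per gene ID and FPKM values for the same IDs. Not given in the sources used here are the aligner, counter, strand setting, genome build and handling of multiply matching reads. Coding length was computed from each gene's count and FPKM (95.96% of lengths were multiples of 3). Columns were matched to samples by group and replicate in the titles, and 0 value columns were left unmatched.

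The count test was that of edgeR 4.0.16, run under R 4.3.3 (filterByExpr, TMM, glmQLFit and glmQLFTest, two-sided, 5 groups in 1 fit, Benjamini-Hochberg adjustment over all genes tested). Each SE was obtained from the fold change and its F statistic (absolute log2 value over root F). CPM values carry TMM factors, and FPKM is as deposited. Intervals and floors rest on pooled counts and reflect counting error alone, not the spread between libraries. The labels mention no molecular identifiers, so PCR copies may count repeatedly and the counting error may be larger than given. Alternatives used DESeq2 1.42.0, limma 3.58.1 (voom, and log2(FPKM + 1) or log2(FPKM + 0.1)), other scalings, filters and thresholds, and left-out libraries. DESeq2 and limma-voom on 11 libraries and the fits without single later libraries were added after seeing the data. Scripts were tested on simulated data.

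The IDs named were, among genes called with 15 and with 11 libraries and changed at least 2-fold, the 2 higher with the highest level at 4 h and the 2 lower with the highest level in control. The libraries, lists and rules were chosen with earlier results of these data known.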

Additional observations from a re-analysis of the deposited data

Results flagged for a closer look

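The 4 h group was tested against the other stress times, which carry the same contrast with control. It differed from the mean of the later times at 12566 genes, from 8 h at 7205, from 12 h at 8557 and from 24 h at 10555, by edgeR with 15 libraries. With the 11 libraries these counts were 11, 0, 0 and 0.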

How the results depend on the processing

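All counts below are genes at an adjusted p under 0.05 unless said otherwise. Lower genes outnumbered higher ones at 4 h against control in every setting with calls, though only by 17 to 15 in edgeR with 11 libraries. The settings share most of their libraries, so they are no separate evidence. Leaving out 1 library of the groups compared at a time gave 5137 to 10678 genes for 4 h against control, 4638 to 13107 for 4 h against the mean of later times, 1594 to 5177 against 8 h, 2198 to 5998 against 12 h and 3391 to 7534 against 24 h, and the lowest value of each range came without 4 h replicate 2. Leaving out libraries of 8, 12 and 24 h was chosen after seeing the data. The count against 8 h was 4316 and 2081 without 8 h replicates 2 and 3, that against 12 h was 2996 and 5657 without 12 h replicates 1 and 3, and that against 24 h was 3651, 5754 and 6937 without 24 h replicates 1, 2 and 3. Without control replicates 1 and 2 the count against control was 8119 and 8361, and without 4 h replicate 3 it was 8651. Without 4 h replicate 1 there were 8357 genes against the later mean, 4339 against 8 h and 6991 against 24 h, and without 4 h replicate 3 there were 5498 against 12 h. Higher genes against control numbered 2374, 2428 and 2737 without control replicates 1, 2 and 3, 2937 without 4 h replicate 3, 2285 with only the groups compared, 7086 in DESeq2 and 1223 at an adjusted p under 0.01, and lower genes 5714 without 4 h replicate 3, 5106 with only the groups compared and 2694 at an adjusted p under 0.01. With 11 libraries edgeR gave 32, 11, 0, 0 and 0 in the order above, DESeq2 7298, 4320, 2405, 2957 and 3682, and limma-voom 1773, 82, 0, 0 and 0. Fitting only the groups compared gave 7391 against control, 3089 against 8 h, 3062 against 12 h and 6255 against 24 h, and 0 against control with 5 libraries (12775 at an unadjusted p under 0.05). DESeq2 on 15 libraries gave 13739, 14988 and 16824 against 8, 12 and 24 h. An adjusted p under 0.01 left 3917, 3834, 1279, 1777 and 2446 in the order above. The cause of these shifts was not tested. With the replicate number as a block, 9858 genes passed against control and 8889 against the later mean. Against 8, 12 and 24 h the block gave 4305, 5536 and 7345. Between 4 h and control libraries of the same number, deviations had correlations of -0.0197, -0.0163 and -0.0360. No such correlations are given for the later groups, so whether the numbers pair the libraries was left undecided. Whether higher or lower genes prevailed between 4 h and the mean of later times changed with the setting, with 49.5% higher in the fit reported, 60.1% without 4 h replicate 2 and 32.3% on log2(FPKM + 0.1). Other scalings and filters kept each count within 1.5 times. At this depth genes under 1 CPM carry few counts per library.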
